A study of Mus musculus with 14 samples.

Results

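The genes described here build and run the machinery of cell division. They were chosen by name: the A, B, D and E cyclins, the Mcm helicase subunits, the centromere proteins with a single-letter Cenp symbol, 8 mitotic kinesins, and 14 further genes among which are Mki67, Top2a, the cyclin-dependent kinases and the mitotic kinases. A gene also had to reach 10 or more counts in at least 3 libraries of each of 2 count tables. Of 56 symbols that match the names, 44 met this rule, out of 13783 symbols that met it among the 53735 in the tables. The other 12 were too low in at least 1 table: Ccnb1, Cenpi, Cenpk, Cenpu, Cenpw, Kif15 and Kif2c met the rule late but not early, and Bub1, Ccna1, Ccnb3, Cenph and Cenpm met it at neither time. Just inside the rule were Plk1, with 10 counts in 3 early libraries, and Aurkb, Kif4 and Ube2c, with 10 counts in 3 late ones. Just outside were Bub1, with 2 such libraries at each time, and Cenpw, with 2 early.

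RNA was measured in 14 hearts of male C57BL/6 mice by poly-A RNA-seq. All animals carried 1 copy of the αMHC-MerCreMer transgene (alphaMHCMCM/+), in which the Myh6 promoter, active in cardiomyocytes, drives a Cre recombinase that tamoxifen switches on, and all are labelled by their time after tamoxifen. Knockout hearts (cKO) came from Fam210afl/fl animals with the transgene, and control hearts from animals with the transgene alone. Early hearts were taken about 5 weeks after tamoxifen (4 cKO, 4 control), when the submitters describe cardiac function as normal, and late hearts about 10 weeks after (3 cKO, 3 control), when they describe it as severely impaired. Recombination is limited to cardiomyocytes, whereas the RNA came from the heart with all its cell types. The animals' ages are not given in the labels. The 2 times were counted in separate tables, which means that an effect of time and one of the table cannot be told apart.

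Cells enter the cycle when D cyclins with Cdk4 or Cdk6, and then E cyclins with Cdk2, relieve the pocket proteins' hold on E2F factors. The Mcm2 to Mcm7 ring is the helicase that opens DNA for replication. Cyclin A and cyclin B drive S phase and mitosis, with Cdk1 as the kinase of mitosis. Kinetochores assembled on centromeres attach chromosomes to the spindle. Adult mouse cardiomyocytes rarely divide, so in an adult heart much of the RNA of the mitotic genes is known to come from other cell types. Several genes of the set also work outside division: Cenpf and Cenpj encode proteins of microtubules and centrosomes, and D cyclins are expressed in cells that do not divide.

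Many genes of mitosis carry 2 short sequence elements near their start: CHR, the cell cycle genes homology region (TTTGAA), to which the DREAM and B-MYB complexes bind, and the CCAAT box (CCAAT), to which NF-Y binds. The 5 stretches below are the 120 bases before the start of transcription of genes on which the results turn, from RefSeq on GRCm38.p6, written 5′ to 3′ on the gene's strand. Capitals mark TTTGAA and CCAAT on either strand (TTCAAA and ATTGG when read on the gene's strand). They show a gene that nearly vanished late (Cenpf, chr1:189688087-189688206, minus strand), 3 mitotic genes that fell (Top2a, chr11:99024190-99024309, minus; Cdk1, chr10:69352913-69353032, minus; Cdc20, chr4:118437344-118437463, minus) and one that rose (Bub1b, chr2:118598091-118598210, plus).
Cenpf: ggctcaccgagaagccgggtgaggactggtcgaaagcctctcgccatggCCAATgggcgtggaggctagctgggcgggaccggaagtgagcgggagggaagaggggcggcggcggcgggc
Top2a: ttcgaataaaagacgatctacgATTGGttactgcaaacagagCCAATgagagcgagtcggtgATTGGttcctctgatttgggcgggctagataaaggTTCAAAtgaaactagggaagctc
Cdk1: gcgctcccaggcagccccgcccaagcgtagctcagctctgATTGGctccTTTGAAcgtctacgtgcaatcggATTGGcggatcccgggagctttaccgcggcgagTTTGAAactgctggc
Cdc20: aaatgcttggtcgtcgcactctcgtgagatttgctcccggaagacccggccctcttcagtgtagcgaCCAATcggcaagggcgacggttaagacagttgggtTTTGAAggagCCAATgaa
Bub1b: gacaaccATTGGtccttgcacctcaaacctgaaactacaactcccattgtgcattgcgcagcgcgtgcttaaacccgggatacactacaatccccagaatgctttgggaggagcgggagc

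Top2a, Cdk1 and Cdc20 hold both elements in these bases, while Cenpf and Bub1b hold a CCAAT box and no TTTGAA. RefSeq promoter entries were found for 37 of the 44 genes, and Aurkb, Ccna2, Ccnd1, Ccnd2, Ccne2, Kif20a and Mcm4 had none. In the 250 bases before the start, on both strands, 11 of the 37 (29.7%) held TTTGAA, against 12.6% of the 10160 genes with an entry that were tested late. CCAAT was in 26 (70.3%) against 39.9%. All 11 genes with TTTGAA also held CCAAT, a pair found in 5.68% of the tested genes. The E2F-like letters TTTNNCGC were in 8 (21.6%) against 8.11%. Over all 27025 genes with an entry, the shares were 18.3% for TTTGAA, 37.5% for CCAAT and 4.94% for TTTNNCGC. Of the 21 genes with an entry that fell late, 38.1% held TTTGAA and 81.0% CCAAT. Of the 5 that rose, 1 held TTTGAA and 4 held CCAAT. Of the 11 not called, 18.2% held TTTGAA and 45.5% CCAAT. TTTNNCGC was in 3 of the genes that fell, in 5 of those not called and in none that rose. These are matches of letters, not measured binding.

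Library totals were 15657298 to 19466469 counts early and 29989076 to 35750964 late. Fam210a (chr18:68260187-68300333, minus strand, GRCm38) checks the labels. Early it stood at 173, 178, 166 and 165 CPM (read counts scaled by library size) in the controls and 158, 135, 140 and 150 CPM in the cKO hearts. Late it stood at 131, 120 and 134 CPM in controls and 65.1, 70.8 and 64.6 CPM in cKO hearts. The groups did not overlap at either time, but the early difference did not pass edgeR's test (log2 fold change -0.22, SE 0.06, adjusted p = 0.170) and the late one did (-0.94, SE 0.11, adjusted p = 6.502e-05). Of its exon bases, 28.5% are shared with a gene on the other strand, mainly Ldlrad4, and the library kit does not mark the strand. Some libraries stand apart or go against a label. The title of early cKO replicate 4 says knockout and its genotype field says control; it was kept as a knockout. Late cKO replicate 3 differs from both other late cKO hearts (chi-square per gene 107 and 101, against 21.5 between those 2). Early cKO replicate 2 held 165 CPM of the atrial gene Bmp10, as late control replicate 3 did at 104 CPM, against at most 0.754 CPM in any other heart. Another atrial gene, Myl7, stood at 175 CPM and 111 CPM in those 2 hearts, but also at 78.85 CPM in late cKO replicate 1 and at 21.96, 15.92 and 21.25 CPM in early control replicate 1 and late control replicates 1 and 2. Both genes were looked at after their values were seen.

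About 5 weeks after tamoxifen, the division genes showed no difference between knockout and control hearts that passed the test. Of the 42 genes tested, none passed edgeR's quasi-likelihood test at an adjusted p under 0.05, where 0.613% of all 13529 genes did (0.517% higher and 0.0961% lower). DESeq2 also called 0, and 3 of the 42 (7.14%) had an unadjusted p under 0.05, against 10.3% of all genes. Their median log2 fold change was -0.02, against 0.00 over all genes, and single values ran from -0.79 to 0.51 with SEs of 0.06 to 0.48. Aurkb and Plk1 were too low to be tested early. The median count over the early libraries was under 20 for 13 of the 44 genes, so moderate changes of those genes may not have been detectable at this depth.

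The proliferation antigen Mki67 stood early at 4.07, 3.12, 2.95 and 6.22 CPM in controls and at 3.11, 6.37, 4.84 and 2.01 CPM in cKO hearts. Top2a, the topoisomerase that untangles DNA before mitosis, stood at 3.53, 2.10, 2.56 and 5.22 CPM in controls and at 2.15, 4.80, 4.79 and 1.54 CPM in cKO hearts. The groups overlapped for both genes, with control replicate 4 and cKO replicates 2 and 3 high. Cdk1, the kinase of mitosis, stood at 1.14, 0.957, 1.15 and 2.19 CPM in controls and at 0.634, 1.45, 1.15 and 0.532 CPM in cKO hearts (log2 fold change -0.52, SE 0.35, adjusted p = 0.666).

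The genes of S phase to mitosis varied together among the early hearts, whatever the genotype. Summed over 18 of them (Mki67, Top2a, the A and B cyclins, Cdk1, the mitotic kinases and regulators, and the kinesins), the controls held 25.97, 20.34, 19.42 and 36.34 CPM and the cKO hearts 19.97, 36.05, 28.02 and 17.01 CPM. Control replicate 4 was among the 3 highest early hearts for 16 of the 18 genes and cKO replicate 2 for 15. Macrophage markers were also highest in cKO replicate 2 (465 CPM, summed over 11 genes) and, among controls, in replicate 4 (375 CPM). They stood at 383 CPM in cKO replicate 3, above control replicate 4. Fibroblast markers were highest in cKO replicate 3 (4624 CPM) and endothelial markers in control replicate 4 (1263 CPM). Early cKO replicate 2 was also the heart with 165 CPM of Bmp10. The part of these cell types in the variation was not tested.

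Cenpf, a large microtubule and kinetochore protein, had the smallest early p. It stood at 58.5, 54.4, 43.9 and 47.4 CPM in controls and at 47.2, 24.6, 22.7 and 24.2 CPM in cKO hearts. The cKO hearts of replicates 2, 3 and 4 lay below every control, and replicate 1 lay among the controls. The log2 fold change was -0.79 (SE 0.20, adjusted p = 0.144). Without cKO replicate 1 it was -1.10 with an adjusted p of 0.0005122, and with the replicate number as a block it was -0.84 with an adjusted p of 0.02009, both by edgeR. In 13 of 16 alternatives, DESeq2 among them, Cenpf stayed uncalled, with adjusted p up to 0.416. Cenpq, a subunit of the inner kinetochore, was the only tested gene of the set whose early groups did not overlap, a share of 2.38% against 5.65% of all genes (2.98% of all genes were higher without overlap). It stood at 5.75, 5.10, 6.09 and 6.22 CPM in controls and at 6.28, 8.68, 8.62 and 6.56 CPM in cKO hearts (log2 fold change 0.38, SE 0.13, adjusted p = 0.340).

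The more abundant genes of G1 phase had small SEs early. Ccnd1 stood at 70.7, 65.4, 67.4 and 79.0 CPM in controls and at 63.9, 57.4, 69.3 and 49.6 CPM in cKO hearts (log2 fold change -0.23, SE 0.10, adjusted p = 0.424). Ccnd2 stood at 142, 141, 121 and 153 CPM in controls and at 143, 135, 162 and 155 CPM in cKO hearts. Ccnd3 stood at 48.9, 47.8, 50.2 and 55.5 CPM in controls and at 42.9, 48.3, 50.1 and 46.3 CPM in cKO hearts. All 3 overlapped between groups, and the early log2 fold changes of Ccnd2 and Ccnd3 were 0.09 (SE 0.08) and -0.11 (SE 0.07). Cdk4 and Cdk6, which pair with the D cyclins, had early log2 fold changes of -0.02 (SE 0.06) and -0.05 (SE 0.09). Cdk4 ranged from 38.1 to 42.0 CPM over all 8 early hearts. Cdk6 stood at 23.1, 22.9, 19.0 and 23 CPM in controls and at 22.3, 21.5, 22.6 and 18.8 CPM in cKO hearts. Cdk2 ranged from 11.5 to 14.9 CPM in controls and from 12.4 to 13.5 CPM in cKO hearts. The low E cyclins overlapped too: Ccne1 ranged from 0.638 to 1.42 CPM in controls and from 0.798 to 1.33 CPM in cKO hearts, and Ccne2 from 1.26 to 2.61 CPM and from 1.77 to 2.09 CPM.

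**Figure D1:**
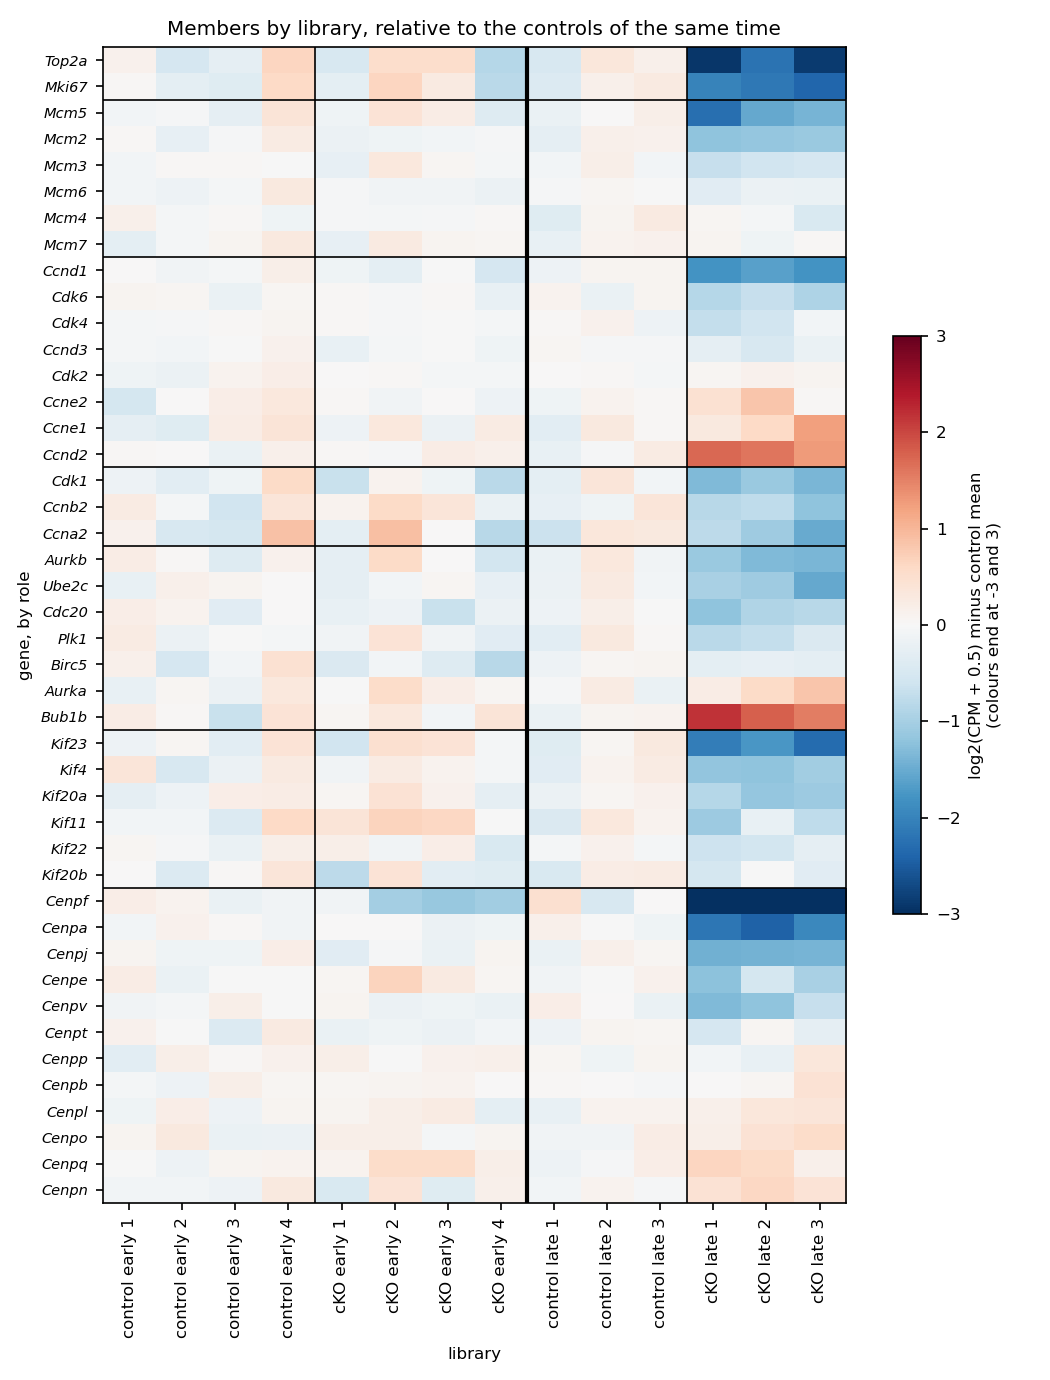
Heat map of the 44 genes (rows, by role) in the 14 libraries (columns), as log2(CPM + 0.5) minus the mean of the controls of the same time; colours end at -3 and 3. The early columns are pale for both genotypes apart from Cenpf, control replicate 4 and cKO replicate 2, while the 3 late cKO columns are mostly blue, with Bub1b and Ccnd2 red.

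About 10 weeks after tamoxifen, most genes of mitosis were lower in knockout hearts, by up to 109-fold for Cenpf, while a few moved the other way. Of the 44 genes, 25 were called lower (56.8%) and 6 higher (13.6%) by edgeR at an adjusted p under 0.05, where 33.2% of all 14942 genes were called lower and 31.8% higher. In either direction 31 of 44 (70.5%) were called, close to the 65.0% of all genes. Their median log2 fold change was -0.81, against -0.02 over all genes. The control and cKO values did not overlap for 26 genes that were lower and 5 that were higher, 59.1% and 11.4% of the set against 35.9% and 34.0% of all genes (69.8% in either direction). Aurkb, Kif4 and Ube2c met the count rule late through the controls alone, so that they had to differ. Without them, 22 of 41 were called lower and 6 higher, and the groups did not overlap for 23 that were lower (56.1%) and 5 that were higher. The count of 6 higher fell to 3 without late cKO replicate 2, to 2 without late control replicate 1 and to 3 without late control replicate 3. The share of all genes called in either direction was 59.5%, 58.7% and 57.9% in these fits, against 65.0% with all libraries. With upper-quartile scaling, which moves the median of all genes to -0.19, the split was 2 higher and 27 lower. Without late cKO replicate 3, 5 were called higher and 25 lower, where 69.7% of all genes were called in either direction.

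Both proliferation markers fell late. Mki67 stood at 5.21, 7.98 and 8.67 CPM in controls and at 1.41, 1.22 and 0.960 CPM in cKO hearts. The groups were far apart, with a log2 fold change of -2.60 (SE 0.25, adjusted p = 2.714e-05 by edgeR). Top2a fell further, from 2.87, 5.38 and 4.65 CPM in controls to 0.120, 0.512 and 0.137 CPM in cKO hearts (log2 fold change -4.01, SE 0.47, adjusted p = 7.907e-05), and the log2 fold change was -5.01 without late cKO replicate 2. Its counts in the cKO hearts were 4, 18 and 4, against 88, 171 and 155 in the controls.

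Of the 6 helicase subunits, 3 were called lower late, where 33.2% of all genes were called lower. Mcm2 went from 6.58, 8.93 and 8.82 CPM in controls to 3.22, 3.30 and 3.43 CPM in cKO hearts (log2 fold change -1.29, SE 0.17, adjusted p = 0.0001853). Mcm5 went from 3.97, 4.68 and 5.31 CPM to 0.572, 1.28 and 1.44 CPM (log2 fold change -2.09, SE 0.31, adjusted p = 0.0003146). Neither gene's groups overlapped. Mcm3 was also called lower (-0.64, SE 0.15), whereas Mcm4 (-0.17, SE 0.20), Mcm6 (-0.24, SE 0.12) and Mcm7 (-0.02, SE 0.15) were not called. The 6 subunits form 1 ring. The difference between subunits was not tested.

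Among the genes of G1 phase, the D cyclins moved in opposite directions late. Ccnd1 fell from 69.8, 81.7 and 81.3 CPM in controls to 22.1, 24.6 and 22.1 CPM in cKO hearts (log2 fold change -1.76, SE 0.12, adjusted p = 3.977e-06). Ccnd2 rose from 97.1, 112 and 136 CPM to 379, 350 and 276 CPM (log2 fold change 1.54, SE 0.17, adjusted p = 5.036e-05). Every cKO heart lay outside the control range for both genes. Ccnd3 went from 64.7, 59.9 and 60.5 CPM to 51.4, 44.1 and 53.6 CPM, a small drop that just passed the test (-0.31, SE 0.12, adjusted p = 0.0395). Of the exon bases of Ccnd1, 23.4% are shared with LTO1 on the other strand, and 7.9% of those of Ccnd2 with antisense genes, so reads there cannot be assigned to 1 gene.

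The kinase partners of the D cyclins were lower. Cdk6 fell from 17.4, 13.9 and 17.1 CPM in controls to 8.64, 9.72 and 8.19 CPM in cKO hearts (log2 fold change -0.86, SE 0.14, adjusted p = 0.0006208). Cdk4 stood at 45.8, 49.4 and 40.3 CPM in controls and at 27.2, 30.2 and 42.4 CPM in cKO hearts, where replicate 3 lay within the control range. Its call was marginal (-0.44, SE 0.17, adjusted p = 0.0485) and was lost without late cKO replicate 1 (adjusted p = 0.155), late cKO replicate 2 (0.153), late control replicate 1 (0.116) or late control replicate 2 (0.153). It shares 19.7% of its exon bases with Tspan31. The call of Ccnd3 was likewise lost without any 1 late library except cKO replicate 3, with adjusted p up to 0.165.

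Cdk2 stood at 14.8, 14.9 and 14.1 CPM in controls and at 15.3, 15.9 and 15.5 CPM in cKO hearts, and was not called (0.09, SE 0.11). Its partner Ccne1 went from 0.912, 1.67 and 1.32 CPM to 1.66, 2.16 and 3.67 CPM, with overlapping groups and a call that was lost without late cKO replicate 3, late control replicate 1 or late control replicate 3 (0.93, SE 0.34, adjusted p = 0.0375, and 0.108, 0.116 and 0.0822 without them). Ccne2 stood at 1.04, 1.32 and 1.23 CPM in controls and at 1.806, 2.502 and 1.234 CPM in cKO hearts and was not called (0.63, SE 0.29, adjusted p = 0.0819). Without late cKO replicate 3, which lay within the controls, its adjusted p was 0.0121. It shares 17.4% of its exon bases with Ints8.

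The A and B cyclins of the set and Cdk1 were all called lower, where 33.2% of all genes were. Cdk1 fell from 1.14, 2.11 and 1.41 CPM in controls to 0.301, 0.426 and 0.274 CPM in cKO hearts (log2 fold change -2.19, SE 0.34, adjusted p = 0.0004577). Ccnb2, a mitotic B cyclin, fell by 1.81 on the log2 scale (SE 0.42) and Ccna2, the A cyclin of S phase and G2, by 1.58 (SE 0.40). The groups did not overlap for any of the 3. Ccna2 shares 12.5% of its exon bases with Exosc9.

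**Figure D2:**
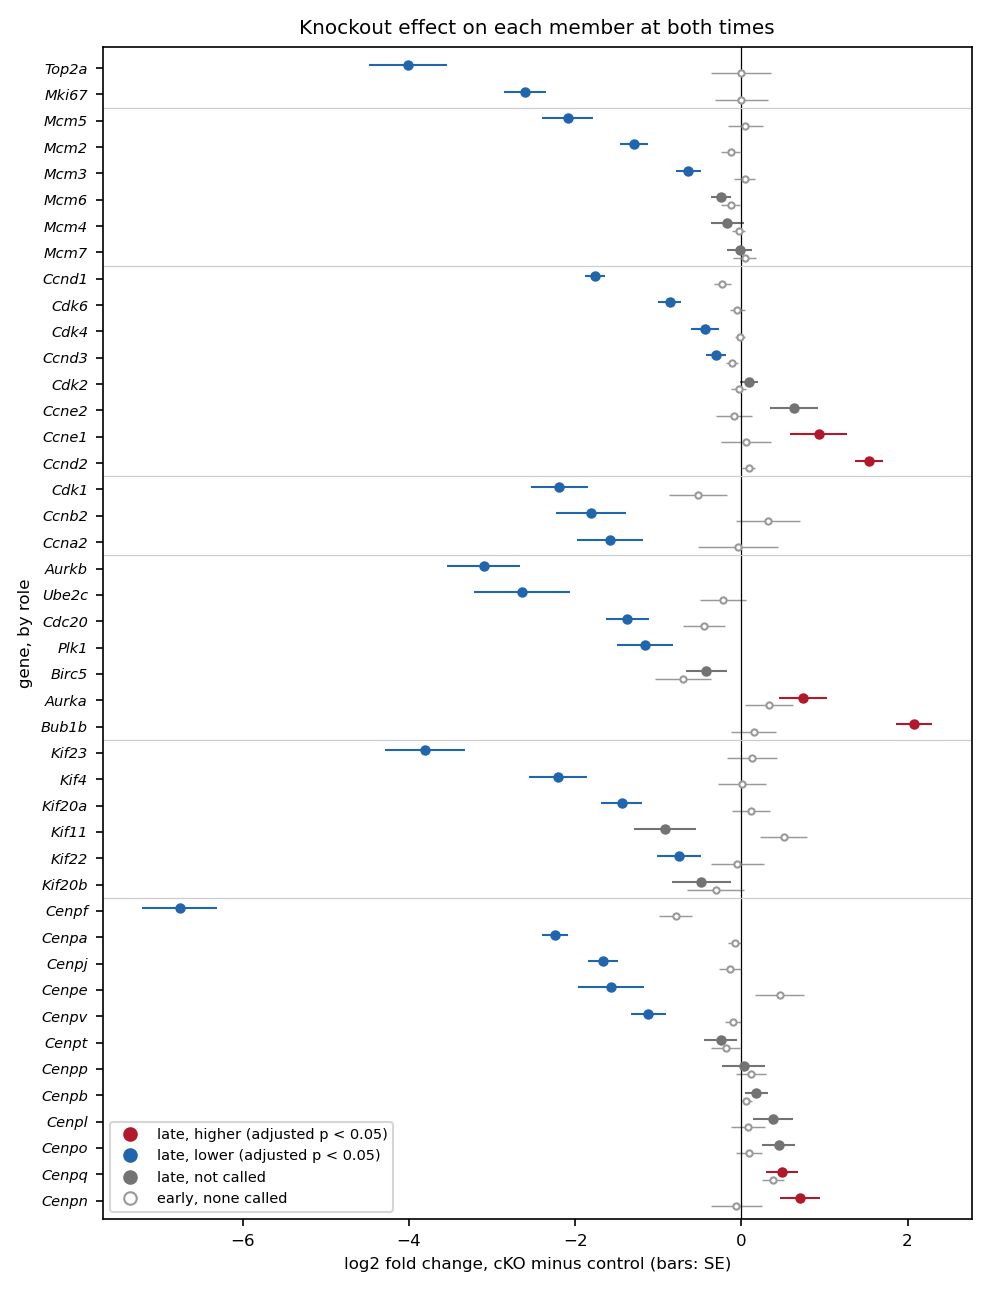
Log2 fold change of cKO against control for each of the 44 genes by role, with SE bars; filled points are late (blue lower, red higher, grey not called) and open points early, where none was called and Aurkb and Plk1 were not tested. Early points lie between -0.79 and 0.51, and late points reach from -6.76 (Cenpf) to 2.08 (Bub1b).

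The mitotic kinases and checkpoint genes did not move as 1 group. Aurkb, the kinase of the chromosomal passenger complex, fell from 0.781, 1.32 and 0.870 CPM in controls to 0.181, 0.0853 and 0.0685 CPM in cKO hearts (log2 fold change -3.10, SE 0.44, adjusted p = 0.0002451), on 6, 3 and 2 counts. Birc5, its partner in that complex, was not called (-0.42, SE 0.25), although its groups did not overlap. Cdc20, the activator of the anaphase-promoting complex, fell by 1.37 on the log2 scale (SE 0.26), and Ube2c, the ubiquitin-conjugating enzyme of that complex, by 2.64 (SE 0.58). Plk1, a kinase of mitotic entry, fell by 1.16 (SE 0.34), a call lost without late cKO replicate 1 (adjusted p = 0.0529), late cKO replicate 2 (0.0531) or late control replicate 2 (0.0720). Ube2c shares 22.8% of its exon bases with the muscle gene Tnnc2 on the other strand. Aurkb and Ube2c met the count rule late through the controls alone, so that they had to differ.

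Bub1b, which encodes the spindle checkpoint protein BubR1, moved against most of the set. It stood at 1.66, 2.14 and 2.19 CPM in late controls and at 10.6, 8.13 and 6.65 CPM in late cKO hearts, or 352, 286 and 194 counts against 51, 68 and 73. The lowest cKO heart was far above the highest control. The log2 fold change was 2.08 (SE 0.22, adjusted p = 4.516e-05 by edgeR), and none of its exon bases is shared with another annotated gene. Aurka, the kinase of spindle poles, went from 1.04, 1.38 and 0.870 CPM in controls to 1.35, 1.85 and 2.33 CPM in cKO hearts, with overlapping groups (0.74, SE 0.29, adjusted p = 0.0444). That call was lost without late cKO replicate 2 (adjusted p = 0.0868), late cKO replicate 3 (0.114), late control replicate 1 (0.103) or late control replicate 3 (0.150). With upper-quartile scaling Bub1b was still called higher, while Aurka was not called (adjusted p = 0.109).

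The kinesins, motors that build the spindle and complete division, fell or were not called. Kif23, the motor of the central spindle, fell from 1.56, 2.26 and 2.70 CPM in controls to 0.120, 0.284 and 0.0343 CPM in cKO hearts (log2 fold change -3.81, SE 0.48, adjusted p = 0.0001282), and the log2 fold change was -4.69 without late cKO replicate 2. Kif4, a motor of chromosome arms, fell from 0.814, 1.29 and 1.5 CPM to 0.241, 0.227 and 0.308 CPM (-2.21, SE 0.35, adjusted p = 0.0004686). The groups were apart for both genes, but Kif4 met the count rule late through the controls alone, so that it had to differ. Kif20a fell by 1.44 on the log2 scale (SE 0.25) and shares 29.3% of its exon bases with Cdc23, and Kif4 shares 15.1% with Pdzd11. Kif22 was called lower (-0.75, SE 0.27, adjusted p = 0.0343), a call lost without any 1 late library except cKO replicate 3, with adjusted p of 0.0639 to 0.122. Kif11, which pushes spindle poles apart, stood at 1.24, 2.42 and 2.04 CPM in controls and at 0.602, 1.51 and 0.891 CPM in cKO hearts and just missed the threshold (-0.92, SE 0.37, adjusted p = 0.0546). It was called without late cKO replicate 2 (adjusted p = 0.0159) or late control replicate 1 (0.0307). Kif20b was not called (-0.48, SE 0.36).

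Centromere proteins held both the largest fall and some of the rises. Cenpf (chr1:189640606-189688086, minus strand) fell from 43.6, 22.1 and 31.6 CPM in controls to 0.361, 0.455 and 0.0343 CPM in cKO hearts, or from 1339, 704 and 1055 counts to 12, 16 and 1. The log2 fold change was -6.76 (SE 0.45, adjusted p = 3.587e-06 by edgeR), a 109-fold drop. Its exons are shared with no other annotated gene. Cenpa (chr5:30666777-30674830, plus strand), the histone H3 variant that marks centromeres, fell from 39.4, 35.2 and 32.4 CPM to 7.46, 6.25 and 8.98 CPM (-2.24, SE 0.16, adjusted p = 4.886e-06). Cenpj, a protein of centriole growth, fell from 4.95, 6.44 and 6.09 CPM to 1.81, 1.85 and 1.89 CPM (-1.66, SE 0.18, adjusted p = 5.051e-05). In each of the 3 genes every cKO heart lay below every control. Cenpe, a kinetochore motor, fell by 1.57 on the log2 scale (SE 0.40) and Cenpv by 1.12 (SE 0.21).

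The inner kinetochore subunits of the set were Cenpl, Cenpn, Cenpo, Cenpp, Cenpq and Cenpt. Of these, Cenpq and Cenpn were called higher, both marginally, and none lower. Over all genes, 31.8% were called higher late and 33.2% lower, so the share called higher was near the general one. Cenpq stood at 5.14, 5.66 and 6.75 CPM in late controls and at 9.33, 8.87 and 6.51 CPM in late cKO hearts (log2 fold change 0.49, SE 0.19, adjusted p = 0.0409), with replicate 3 within the control range. Cenpn was called higher without overlap (0.71, SE 0.24, adjusted p = 0.0259). The call of Cenpq was lost without late cKO replicate 1 (adjusted p = 0.111), late cKO replicate 2 (0.107), late control replicate 1 (0.122) or late control replicate 2 (0.111). That of Cenpn was lost without late cKO replicate 2 (0.0833), late control replicate 1 (0.0724) or late control replicate 3 (0.0800). Cenpo stood at 2.41, 2.45 and 3.15 CPM in controls and at 3.07, 3.78 and 4.15 CPM in cKO hearts and was not called (0.45, SE 0.20, adjusted p = 0.0738), though it was without late cKO replicate 1 (0.0391). Cenpl (0.38, SE 0.24), Cenpp (0.03, SE 0.26) and Cenpt (-0.25, SE 0.20) were not called. Cenpb, which binds centromeric repeat DNA, stood at 172 to 183 CPM in controls and at 179, 184 and 242 CPM in cKO hearts and was not called (0.18, SE 0.14). Of the matching symbols left out for low early counts, the inner kinetochore genes Cenpu, Cenpw and Cenpk were called higher late (2.13, 2.36 and 0.98, with SEs of 0.30, 0.46 and 0.38) and the kinesin Kif15 lower (-2.50, SE 0.48). The inner kinetochore gene Cenpi was not called late (0.20, SE 0.34), and Cenph and Cenpm were too low to be tested late. Cenpm had a mean of 0.117 CPM in late cKO hearts and 0.353 CPM in late controls, without overlap. Cenpw was at 1.73 without late cKO replicate 3. Its difference between times was not called (1.25, SE 0.72, adjusted p = 0.1425), while that of Cenpu was (1.49, SE 0.48). Cenpu shares 26.7% of its exon bases with Primpol on the other strand, and Cenpo 22.5% with Adcy3 and Ptrhd1. The call of Cenpk (adjusted p = 0.0438) was lost in 8 of 12 alternatives: with DESeq2 (0.0922), no filter (0.0793), the replicate block (0.0765) or upper-quartile scaling (0.0865), and without late cKO replicate 1 (0.0873), late cKO replicate 2 (0.127), late control replicate 1 (0.136) or late control replicate 3 (0.134). Kif15 and Kif2c met the count rule late through the controls alone, so that they had to differ. Kif2c had 17, 27 and 19 counts in late controls and 2, 0 and 1 in late cKO hearts, a ratio of 21.4 between controls and cKO with a 95% interval of 6.99 to 106 that covers counting error only.

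**Figure D3:**
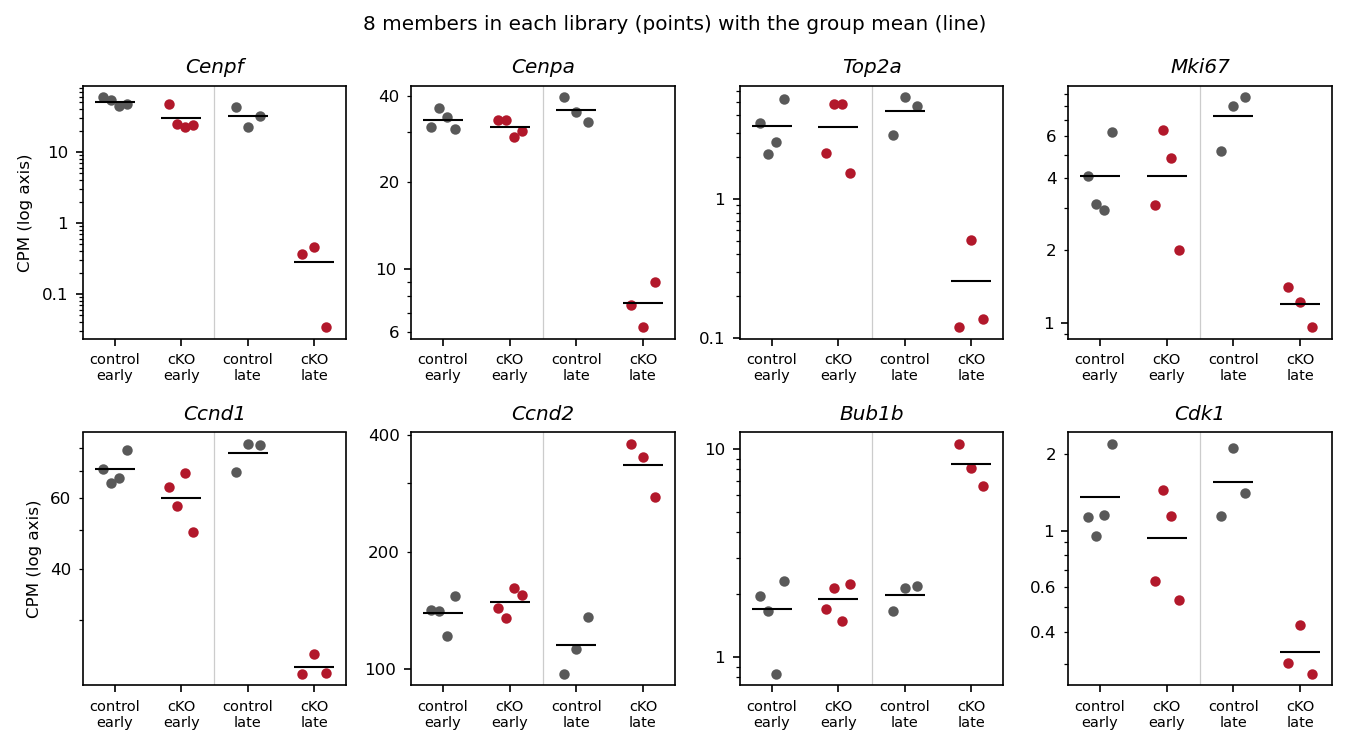
CPM on a log axis in each library (points) with the group mean (line) for 8 genes, early and late, controls grey and cKO red. Early groups overlap in all 8 panels; late cKO hearts lie below all late controls for Cenpf, Cenpa, Top2a, Mki67, Ccnd1 and Cdk1, and above them for Ccnd2 and Bub1b.

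The knockout effect was then compared between the 2 times. Of the 44 genes, 21 (47.7%) had a lower effect late than early and 2 (4.55%) a higher one by edgeR's contrast, where 31.3% and 29.8% of all 14555 genes did. In either direction 23 (52.3%) passed, against 61.2% of all genes, and 26 (59.1%) had an unadjusted p under 0.05, against 64.9%. Without Aurkb, Kif4 and Ube2c, 18 of 41 (43.9%) had a lower effect late and 2 a higher one. The median difference of the 2 log2 fold changes was -0.74, against -0.01 over all genes. Those with the smallest p were Cenpa (-2.14, SE 0.17, adjusted p = 3.123e-08), Cenpf (-5.95, SE 0.53, adjusted p = 1.419e-07), Ccnd1 (-1.51, SE 0.15, adjusted p = 5.062e-07) and, in the other direction, Ccnd2 (1.47, SE 0.17, adjusted p = 3.132e-06). Bub1b was the other gene with a higher late effect (1.95, SE 0.36, adjusted p = 0.0002408). Mki67 (-2.57, SE 0.47), Top2a (-3.97, SE 0.68) and Kif23 (-3.90) also differed between times, and without late cKO replicate 2 the values of Top2a and Kif23 were -4.95 and -4.75. Cdk4 (-0.40, SE 0.17, adjusted p = 0.0575) and Plk1 (-1.10, SE 0.49, adjusted p = 0.0609) just missed the threshold. They passed it under several alternatives, among them without late cKO replicate 3 (adjusted p = 0.0002345 and 0.0321). Kif11 and Cdc20 passed the test of the difference with all libraries (-1.41 and -0.90). Without late cKO replicate 1 (adjusted p = 0.0566 and 0.105) or late control replicate 2 (0.0609 and 0.0914) both lost it. Cdc20 also lost it without late cKO replicate 2, late control replicate 3, early cKO replicates 1, 2 or 4, or early control replicates 3 or 4.

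Other genes of the same processes were examined as fixed lists. None of their members was called early by edgeR or DESeq2, among 33 tested genes of DNA replication, 23 of G2, mitosis and cytokinesis, 17 of the kinetochore and checkpoint, and 25 CDK inhibitors, pocket proteins, E2F and DREAM factors. At an unadjusted p under 0.05 these lists held 5, 0, 0 and 1 genes early, where 10.3% of all genes had such a p and 0.613% were called. Late, 17 of 33 tested genes of the mitosis list were called lower and 6 higher (median log2 fold change -0.84), where 33.2% of all genes were called lower and 31.8% higher. Cdc25b, a phosphatase that activates Cdk1, fell from 8.68 ± 0.983 to 2.28 ± 0.428 CPM (SD, n = 3 each; -1.93, SE 0.19), Prc1, a bundler of central spindle microtubules, by 3.74 on the log2 scale (SE 0.38) and Fam64a by 4.51 (SE 0.50). Prc1 shares 11.1% of its exon bases with Rccd1. Kif18b had 15, 28 and 20 counts in late controls and 1, 0 and 0 in cKO hearts, a ratio of 64.1 with a 95% counting interval of 11.1 to 2573. It reached 10 counts in the late controls alone, so that it had to differ. Genes of this kind were not taken out of the list counts. The condensin genes Ncapd2 and Ncaph fell by 1.25 (SE 0.17) and 1.67 (SE 0.25).

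The replication and kinetochore lists held calls in both directions late. Of 36 replication genes, 13 were called higher and 13 lower (median 0.14), where 31.8% of all genes were called higher and 33.2% lower. Ung, a uracil-DNA glycosylase, fell from 18.7 ± 0.963 to 2.68 ± 0.794 CPM (SD, n = 3 each; -2.80, SE 0.21), and Tk1, the thymidine kinase of S phase, by 2.99 (SE 0.30). The DNA polymerase subunit Pold1 fell by 0.97 (SE 0.12) and the ribonucleotide reductase subunit Rrm2 by 1.94 (SE 0.26). The histone chaperone subunits Chaf1b and Chaf1a rose, by 2.76 (SE 0.23) and 1.59 (SE 0.16), but 52.5% of the exon bases of Chaf1a are shared with Ubxn6 on the other strand. Of 25 further kinetochore and checkpoint genes, 10 were called higher and 8 lower (median 0.05), against the same shares of all genes. Zwint and Zw10, which recruit motor proteins to the kinetochore, rose from 48.6 ± 3.94 to 224 ± 11.5 CPM (2.20, SE 0.12) and from 20.1 ± 0.207 to 81.1 ± 4.58 CPM (2.01, SE 0.11; SD, n = 3 each). Dsn1 rose by 1.85 (SE 0.19), while Spc24, a subunit of the Ndc80 complex, fell by 3.88 (SE 0.30). Kntc1, which works with Zw10 in 1 complex, had 12, 22 and 12 counts in late controls and 1, 0 and 0 in cKO hearts, a ratio of 46.8 with a 95% counting interval of 8.00 to 1889. Like Kif18b, it reached 10 counts in the late controls alone, so that it had to differ.

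Of 26 tested inhibitors, pocket proteins, E2F and DREAM factors, 7 were called higher and 10 lower late (median -0.09), against 31.8% and 33.2% of all genes. Cdkn1a, which encodes the CDK inhibitor p21, rose from 14.1 ± 0.845 to 354 ± 30.9 CPM (SD, n = 3 each), a log2 fold change of 4.65 (SE 0.13, adjusted p = 1.023e-07 by edgeR). The pocket protein gene Rbl1 fell by 2.91 (SE 0.28) and the repressor E2f6 by 1.22 (SE 0.11). E2f3 rose by 1.43 (SE 0.14) and the histone-binding DREAM subunit Rbbp4 by 0.78 (SE 0.10), the latter with 1578 of its 8744 exon bases shared, mainly with Sync. For the named genes of all 4 lists that could be tested, Cdkn1a, Zwint, Zw10, Ung and Spc24 among them, the difference between times was also called (3.74, 2.18, 1.99, -2.47 and -3.65 for these 5).

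Markers of the other cell types in the heart also differed late, but not all in the same direction. Endothelial markers summed to 1251 to 1478 CPM in late controls and 605 to 675 CPM in late cKO hearts, with 10 of 10 called lower and a median log2 fold change of -1.25. Macrophage markers summed to 423 to 433 and 215 to 284 CPM (9 of 11 lower, none higher) and fibroblast markers to 3415 to 4304 and 2057 to 2435 CPM (6 of 11 lower, 2 higher). Of 8 mural and smooth muscle markers 6 were lower and 2 higher, and their sum was 1526 to 1614 CPM in controls and 1773 to 2462 CPM in cKO hearts. Erythroid markers summed to 42.8 to 74.5 CPM in controls and 198 to 381 CPM in cKO hearts (6 of 6 tested higher, of 8). Lymphocyte markers were near 0 throughout, at 3.94 to 4.02 CPM in controls and 0.767 to 1.10 CPM in cKO hearts, where Nkg7 was at 0. Of the few tested neutrophil markers (3 of 8), 1 was higher and 1 lower, of the adipocyte markers (3 of 5) 1 was lower, and of the epicardial and mesothelial markers (4 of 5) 1 was lower. Cardiomyocyte markers, which define the labelled tissue, were abundant in every heart, at 75030 to 84720 CPM in late controls and 66170 to 77020 CPM in late cKO hearts (4 of 11 lower, 2 higher). Over all genes, 33.2% were called lower late and 31.8% higher, so the 4 of 11 cardiomyocyte markers called lower were near the general share. The part of these shifts in the division genes was not tested, and in whole hearts fewer cells of a type and less RNA per cell cannot be told apart.

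Summed over the 18 genes of S phase to mitosis, late controls held 25.86, 40.77 and 38.78 CPM and late cKO hearts 20.31, 19.96 and 16.79 CPM. Bub1b alone made up 10.6, 8.13 and 6.65 CPM of the cKO sums and 1.66, 2.14 and 2.19 CPM of the control sums. Early, none of the 61 tested markers of all cell types was called by edgeR, 9 had an unadjusted p under 0.05, and DESeq2 called 1, the adipocyte marker Cfd, higher. Over all genes, edgeR called 0.613% early, and 10.3% had an unadjusted p under 0.05. Endothelial sums were then 1077 to 1263 CPM in controls and 1149 to 1231 CPM in cKO hearts, and cardiomyocyte sums 73470 to 80550 CPM in controls and 66100 to 71260 CPM in cKO hearts, without overlap.

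**Figure D4:**
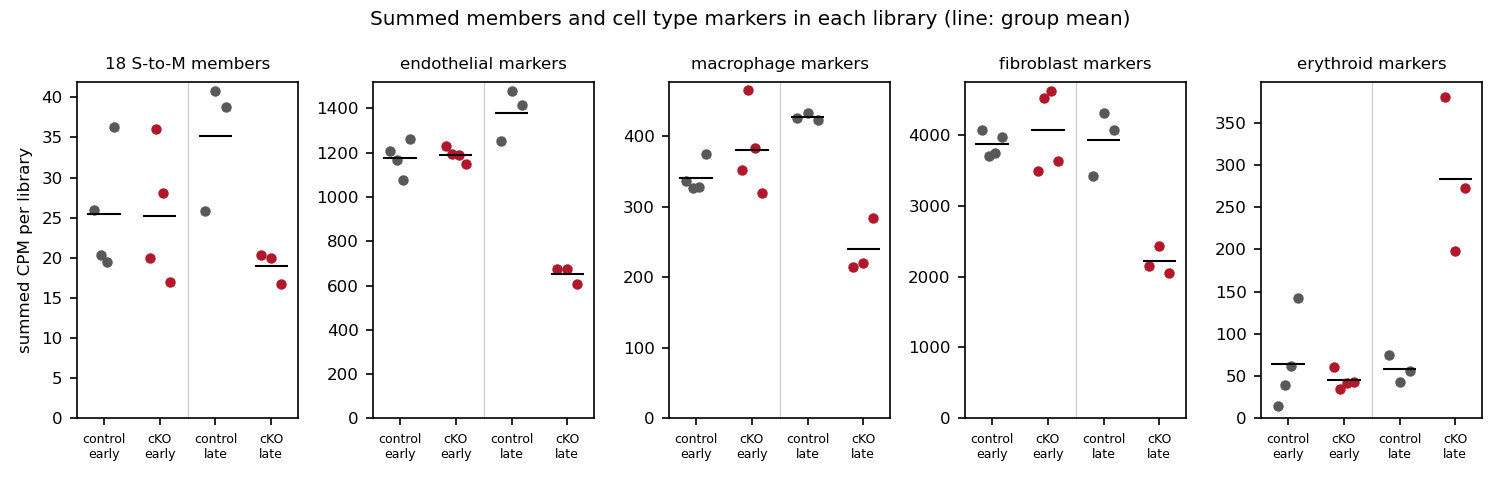
Summed CPM per library (points) with the group mean (line) for the 18 genes of S phase to mitosis and for endothelial, macrophage, fibroblast and erythroid markers, controls grey and cKO red, each axis starting at 0. The early groups overlap in every panel, while the late cKO hearts lie below the late controls in the first 4 panels and above them for erythroid markers.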

How the data were processed

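The authors deposited raw counts of reads by gene symbol, 1 table a time. Trimmomatic 0.36, STAR 2.6.0c and build GRCm38 are named in the submitters' processing notes; which counter, annotation and strand setting were used is not given in the sources used here. Per the labels' protocols, the TruSeq kit V2 was used, which does not mark strand.

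The genes, the lists and the rule for named genes were chosen with earlier results of these data known, so lists are described by counts and medians without a test. Values per library are given for Mki67, Top2a, Cdk1, the D and E cyclins, Cdk2, Cdk4 and Cdk6, the up to 14 genes called late with the smallest p, the up to 4 called for the difference between times, and the 2 uncalled genes with the smallest p in each comparison. From each pathway list the up to 4 called genes with the smallest p in each comparison are named. Other genes were added after their values were seen.

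The test was edgeR's quasi-likelihood F test (edgeR 4.0.16, R 4.3.3; TMM, filterByExpr with minimum count 10 and minimum total 15, Benjamini-Hochberg adjustment over all genes tested, called under 0.05). Each table was fitted alone, and the difference between times in 1 fit of all 14 libraries. Unless another tool is named, every p, log2 fold change and SE comes from these fits. Each SE was derived as log2 fold change over the root of F. CPM was computed here with TMM-scaled library sizes. Alternatives were DESeq2 1.42.0, other scalings and filters, a replicate block, 1 fit for both times, the label conflict and leaving out each library. The procedure was tested on simulated data in which few genes changed, as many up as down. Late, 65.0% of all genes were called, a setting that this simulation does not cover. Coordinates and exon overlaps come from GENCODE M21. Since the labels name hearts without saying that each is another animal, p-values reflect only the spread among these libraries. That spread was wider than counting error gives, with chi-square per gene of 3.9 to 106.6 between libraries of a group. Whether it came from the animals or from handling was not tested. Counting intervals do not cover biological spread.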

Additional observations from a re-analysis of the deposited data

Results flagged for a closer look

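Among the 48 sets of 4 early hearts tested for a heart far from the rest, 3 had one, and at the 95% level about 1 set in 20 is picked by chance. Cdk1 was high in early control replicate 4 at 2.19 CPM, against 0.957 to 1.15 CPM in the other controls. Cdk6 was low in early control replicate 3 at 19.0 CPM, against 22.9 to 23.1 CPM in the other controls. Cenpf was high in early cKO replicate 1 at 47.2 CPM, against 22.7 to 24.6 CPM in the other cKO hearts. Fam210a in that heart was the highest of the early cKO hearts at 158 CPM, and a link to Cenpf was not tested.

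For 4 genes named by the difference between times, edgeR's contrast found that the knockout effect differed. The late effect was lower than the early one for Cenpa (-2.14 on the log2 scale), Cenpf (-5.95) and Ccnd1 (-1.51), and higher for Ccnd2 (1.47). Each time has its own count table, so a difference between times and one between tables cannot be told apart unless the table acts alike on both genotypes.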

How the results depend on the processing

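Of the 31 late calls, 23 held in all 13 alternatives in which the late comparison was refitted, and 21 of the 23 calls for the difference between times held in all 21 of theirs. Aurkb, Kif4 and Ube2c were among those that held in both. They met the count rule late through the controls alone, so their late calls had to hold and do not bear on robustness. Of the genes not called, 4 gained a late call in at least 1 alternative and 8 a call for the difference. No called gene changed direction. The count of genes called lower early went from 0 to 1 (Cenpf) without a filter on low counts and with the replicate block, and ranged from 0 to 1 on leaving out 1 library, the 1 coming without early cKO replicate 1. The count called higher late went from 6 to 3 with the replicate block and to 2 with upper-quartile scaling, and ranged from 2 to 6 on leaving out 1 library. The late share of all genes called in either direction was 65.0% in the main fit, 56.0% with the block and 64.7% with that scaling. On leaving out 1 library that share was 55.9% to 69.7%. Applying the count rule over all 14 libraries, chosen after seeing the data, gives 52 genes, of which 9 were called higher and 27 lower late. Of all genes tested late, 31.8% were called higher and 33.2% lower. Kif15 and Kif2c, among these 27, met the rule late through the controls alone, as Aurkb, Kif4 and Ube2c did. Replicate numbers did not pair the hearts: deviations of same-numbered hearts correlated at -0.09, -0.05, -0.04 and -0.05 early and at -0.35, -0.06 and -0.55 late. Differently numbered hearts correlated at -0.13 to 0.19 early and at -0.30 to 0.46 late. The highest late values were for cKO replicate 3 with control replicate 1 (0.46) and cKO replicate 1 with control replicate 3 (0.43). With the replicate block, 3 genes were higher and 23 lower late, and 2 and 21 for the difference between times. Of all genes, 56.0% and 55.0% were called in these 2 fits. Leaving out early cKO replicate 4 or counting it as a control gave no early call in the set, while over all genes the early calls went from 83 to 181 and 162; DESeq2 gave 176 and no filter 388. With upper-quartile scaling the split for the difference was 2 higher and 25 lower, where 61.1% of all genes were called. Early, depth limits what could be seen in the 13 genes with a median under 20 counts.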

Other observations

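Genes that match the names but stayed under the count rule had these values. Bub1, the checkpoint kinase that works beside Bub1b, stood at 0.1303, 0.6916 and 0.5999 CPM in late controls and at 0.0301, 0.0853 and 0 CPM in late cKO hearts; it was not tested late. The difference between times was called for it (log2 -3.16, SE 0.98, adjusted p = 0.0111 by edgeR), at -4.23 without late cKO replicate 2. Cenpm stood at 0.228, 0.440 and 0.390 CPM in late controls and at 0.0903, 0.227 and 0.0343 CPM in late cKO hearts. Ccna1 was at 0 counts in all 3 late cKO hearts and at no more than 5 in a late control. Ccnb1 was not called late (log2 fold change -0.20, SE 0.33), unlike Ccnb2, and the difference between these cyclins was not tested. Cenpi was not called either (0.20, SE 0.34), Cenph stayed at 11 counts or fewer in every library, and Ccnb3 had no count in any library.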
